A study of Mus musculus with 6 samples.

Results

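The cell cycle and proliferation genes described here are 50 of the 21512 genes in the deposited table, chosen by name from the standard genes of G1, S phase and mitosis. They comprise cyclin D1 (Ccnd1), 18 genes of G1/S entry and DNA replication, called S-phase genes here, and 31 genes of G2 and mitosis, called mitotic genes. All 50 were found in the table. Whole livers of 6 C57BL/6J mice were profiled by RNA sequencing after removal of ribosomal RNA, 1 library per mouse. Every mouse had received a high-fat diet and the liver toxin CCl4 for 12 weeks, a model of fibrosis in metabolic dysfunction-associated steatohepatitis (MASH), and every 3 days an antibody, either an isotype control (controls 1 to 3) or anti-PD-1 (anti-PD-1 livers 1 to 3). The treatment field of the labels gives Anti-PD-2 and Anti-PD-3 for anti-PD-1 replicates 2 and 3, whereas the sample titles and the series design give PD-1 for all 3. Age, sex and antibody dose are not given in the sources used here, and no group of mice without diet and CCl4 is analysed here.

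Cyclin D1 with its kinase starts the release of E2F factors from the retinoblastoma proteins in G1, and E2F then drives the genes of DNA replication. The genes of G2 and mitosis are held off in resting cells by the DREAM complex and switched on later by the B-MYB and FOXM1 factors, largely through promoter elements called CHR (cell cycle genes homology region) and CCAAT boxes. Adult liver cells are mostly resting, and injury by CCl4 is known to bring hepatocytes and other liver cells into the cycle. PD-1 is an inhibitory receptor best known on T cells, which themselves divide when activated.

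The division of the members into S-phase and mitotic genes was also visible in promoter sequence. RefSeq promoters (build GRCm38.p6, 250 bases before to 50 bases after the start) were matched by symbol for 40 of the 50 members. The CHR letters TTTGAA, on either strand, were present in 19 of 25 mitotic promoters (76%), in 2 of 15 S-phase promoters (13.3%) and in 18.1% of all 27025 promoters. CCAAT, on either strand, was present in 22 of 25 mitotic (88%), 10 of 15 S-phase (66.7%) and 37.9% of all promoters. An E2F motif (TTTCCCGC, TTTGGCGC, TTTGCCGC or TTTCGCGC, either strand, these 4 forms able to overlap one another on opposite strands) was present in 1 of 25 mitotic (4%), 6 of 15 S-phase (40%) and 2.32% of all promoters. The mitotic genes Cdca3, Cdc20 and Prc1 and the S-phase genes Tyms, Tk1 and Rrm2 are shown because they had the smallest p-values of their class in the treatment comparison among members with a promoter that could be printed. Mki67 and Mcm6 are added as examples, chosen after their motif matches were seen, of a promoter with CHR and of one with E2F letters. Each run covers 200 bases before to 30 bases from the start site, 5′ to 3′ on the gene's strand. Capitals mark complete matches to the CHR, CCAAT or E2F letters on either strand. The positions are chr6:124829976-124830205 (plus strand) for Cdca3, chr4:118437314-118437543 (minus) for Cdc20, chr7:80294251-80294480 (plus) for Prc1, chr7:135716350-135716579 (minus) for Mki67, chr5:30073596-30073825 (minus) for Tyms, chr11:117825985-117826214 (minus) for Tk1, chr12:24708054-24708283 (plus) for Rrm2 and chr1:128359676-128359905 (minus) for Mcm6. The CHR match of Cdca3 lies outside its printed stretch.
Cdca3: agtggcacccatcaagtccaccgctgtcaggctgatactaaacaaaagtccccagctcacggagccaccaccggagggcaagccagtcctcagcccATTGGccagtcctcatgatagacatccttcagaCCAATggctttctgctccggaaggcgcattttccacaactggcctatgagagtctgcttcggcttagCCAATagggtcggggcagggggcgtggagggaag
Cdc20: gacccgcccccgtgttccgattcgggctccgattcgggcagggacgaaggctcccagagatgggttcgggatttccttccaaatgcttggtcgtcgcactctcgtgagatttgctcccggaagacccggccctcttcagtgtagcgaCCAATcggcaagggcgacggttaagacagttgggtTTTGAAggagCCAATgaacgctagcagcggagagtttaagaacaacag
Prc1: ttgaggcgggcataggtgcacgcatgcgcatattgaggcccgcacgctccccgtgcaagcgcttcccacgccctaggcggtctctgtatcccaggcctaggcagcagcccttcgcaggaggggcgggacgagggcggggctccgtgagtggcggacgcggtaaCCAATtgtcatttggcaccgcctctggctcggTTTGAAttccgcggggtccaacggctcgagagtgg
Mki67: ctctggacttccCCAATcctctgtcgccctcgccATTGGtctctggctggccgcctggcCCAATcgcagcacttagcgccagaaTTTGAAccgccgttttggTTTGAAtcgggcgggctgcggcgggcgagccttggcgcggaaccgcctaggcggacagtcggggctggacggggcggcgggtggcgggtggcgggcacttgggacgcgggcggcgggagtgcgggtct
Tyms: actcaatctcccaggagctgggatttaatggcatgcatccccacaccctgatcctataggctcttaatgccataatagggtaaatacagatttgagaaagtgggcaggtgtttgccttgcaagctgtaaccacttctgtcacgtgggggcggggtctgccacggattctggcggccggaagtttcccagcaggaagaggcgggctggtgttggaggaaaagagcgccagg
Tk1: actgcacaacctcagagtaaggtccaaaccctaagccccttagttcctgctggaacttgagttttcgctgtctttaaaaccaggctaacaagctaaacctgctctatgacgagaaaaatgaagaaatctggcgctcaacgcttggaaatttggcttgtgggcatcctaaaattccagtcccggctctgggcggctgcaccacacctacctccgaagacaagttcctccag
Rrm2: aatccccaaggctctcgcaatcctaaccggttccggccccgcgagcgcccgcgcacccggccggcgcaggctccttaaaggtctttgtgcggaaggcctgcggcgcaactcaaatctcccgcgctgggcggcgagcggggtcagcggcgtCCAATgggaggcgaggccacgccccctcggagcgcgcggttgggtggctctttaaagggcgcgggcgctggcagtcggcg
Mcm6: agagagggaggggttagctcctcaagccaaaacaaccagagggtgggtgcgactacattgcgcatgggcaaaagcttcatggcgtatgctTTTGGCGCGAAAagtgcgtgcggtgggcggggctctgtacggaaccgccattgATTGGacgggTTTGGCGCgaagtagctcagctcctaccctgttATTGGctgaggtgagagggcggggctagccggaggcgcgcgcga

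The values are read counts scaled to library size (CPM), called units here, and the 6 libraries held between 15528364 and 20779319 reads assigned to genes. Members were thinly covered, from 6 to 1784 reads per library among the 43 that entered the test, so counting error alone is sizeable for most of them. The other 7 (Cdc6 of S phase, and Plk1, Melk, Aurkb, Bub1, Ttk and Ube2c of mitosis) did not reach 1 unit in 3 libraries, and held 0 to 42 reads per library. Of the 43, 14 reached that level in fewer than 3 anti-PD-1 livers and 4 in fewer than 3 controls. Hepatocyte markers were high in all 6 libraries. Control 1 stood apart from the other controls in the mitotic genes, and anti-PD-1 liver 1 from the other treated livers in immune markers, so results are also given without each. The summed level of 8 T cell markers was 4.37, 3.73 and 2.92 in controls 1 to 3 and 43.5, 7.32 and 9.47 in anti-PD-1 livers 1 to 3.

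Mitotic genes had lower means in the treated livers in 30 of 31 cases, and in 24 of 31 without control 1, yet no member passed the adjusted test. The S-phase genes stayed closer to their control level, with lower means in 12 of 18 both with and without control 1. Levels were compared on the log2(value + 0.5) scale with limma across 13990 genes, and all differences given are anti-PD-1 minus control on that scale. With limma, 0 of the 43 tested members passed an adjusted p of 0.05, against a background of 0.00715% of all tested genes called higher and 0% called lower. The smallest limma adjusted p was 0.336 (Cdca3). At an unadjusted p under 0.05, 7 members were lower and 0 higher, where 6.24% of all tested genes were lower and 5.04% higher. The 7 were Ccnd1, Tyms and the mitotic genes Cdca3, Tpx2, Kif20a, Cdc20 and Prc1. edgeR also called 0 members after adjustment (background 0% in either direction), with 5 lower and 0 higher at an unadjusted p under 0.05 (background 5.95% and 5.68%). DESeq2 called 0 after adjustment (background 0.779% lower and 1.05% higher), with 8 lower and 0 higher at an unadjusted p under 0.05 (background 5.18% and 6.25%). With the replicate number as a block, limma gave 16 members lower and 0 higher at an unadjusted p under 0.05 (background 7.4% and 7.75%), and again 0 after adjustment (background 0.0929% lower and 0.193% higher). Even if a lower level were called, whole-liver values could not tell fewer dividing cells from less RNA per dividing cell.

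**Figure D1:**
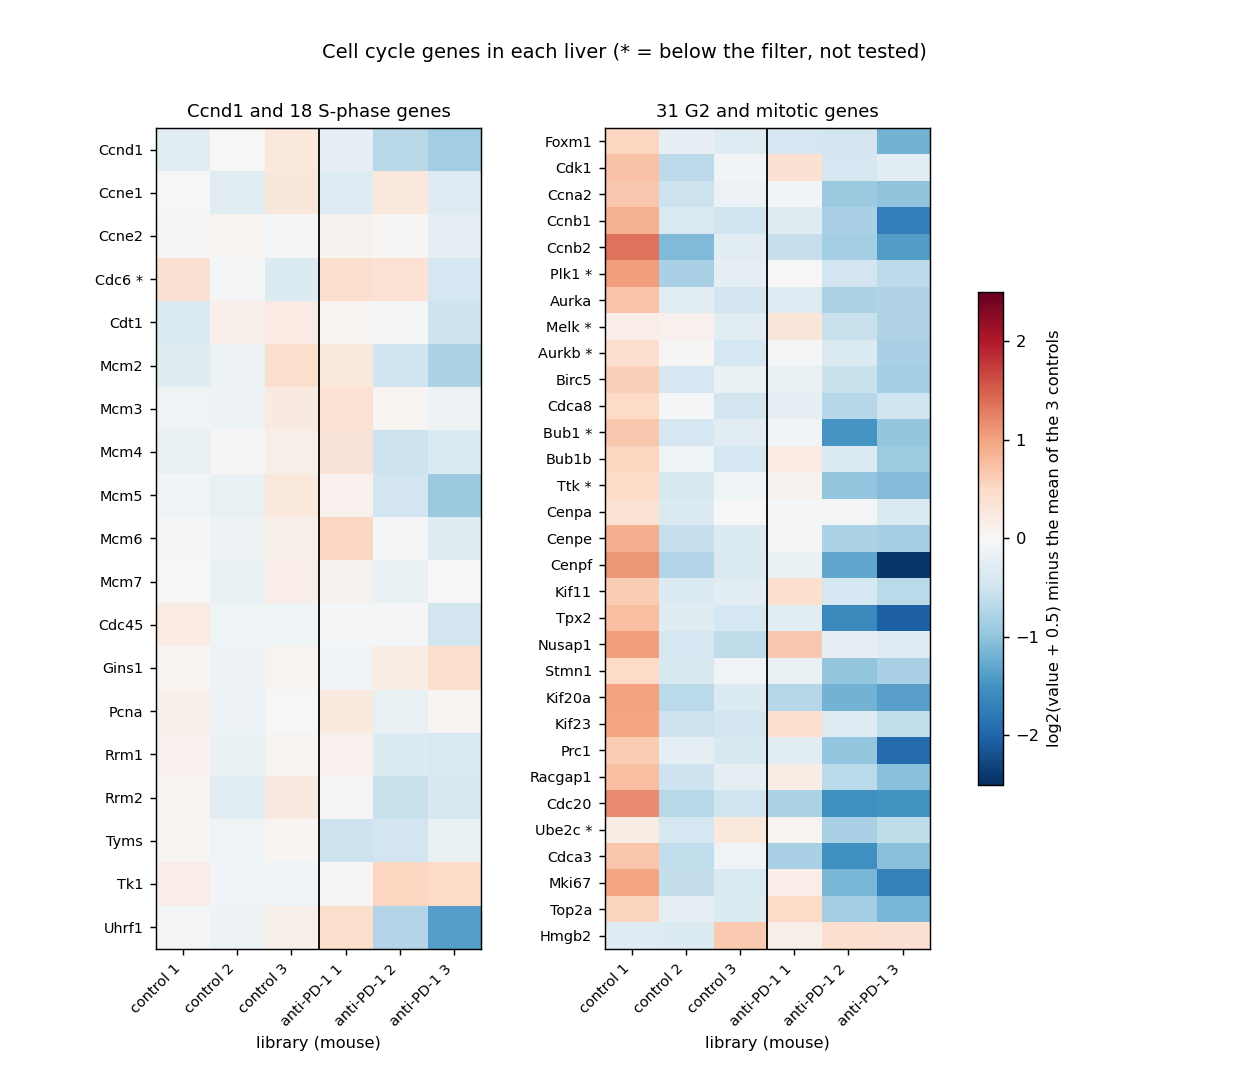
Each cell shows log2(value in units + 0.5) of a gene in a liver minus the mean of the 3 controls, with Ccnd1 and the 18 S-phase genes in the left panel and the 31 mitotic genes in the right one. An asterisk marks the 7 genes that were not tested. In the right panel control 1 is the reddest column for 28 of 31 genes, where it was highest for 21.2% of all tested genes. All 3 anti-PD-1 livers are below every control for 4 of the 31 and for 1 of the 18 S-phase genes, where 9.98% of all tested genes were. The left panel is paler apart from Uhrf1.

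The differences of the 25 tested mitotic genes had a median of -0.62 and ran from -1.31 to 0.31, with 23 negative. Among all 13990 genes the median was 0.003 and 49.5% were negative. The 17 tested S-phase genes had a median of -0.17, from -0.55 to 0.35, with 12 negative. A mitotic gene could enter the test through the controls alone, and 11 of the 25 reached the filter in fewer than 3 anti-PD-1 livers, so the values of all members without the filter bear more weight. Without it, 29 of 31 mitotic differences were negative with a median of -0.55, and 12 of 18 S-phase differences with a median of -0.15. As a ratio of means, all 18 S-phase genes and 9 of the 31 mitotic genes lay within 1.5-fold of the control level. A mean at least 2-fold lower was found in 10 mitotic genes, but 9 of them reached 1 unit in fewer than 3 anti-PD-1 livers and so rest on few reads. The share of all genes at either fold was not computed, so whether these counts are unusual is not known. Every anti-PD-1 value lay below every control value for 4 mitotic genes (Foxm1, Kif20a, Cdc20 and Cdca3) and 1 S-phase gene (Tyms), where 9.98% of all tested genes did so, and the reverse held for 0 tested members and 7.13% of all tested genes. The difference between the 2 classes was not tested, since genes are not replicates.

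**Figure D2:**
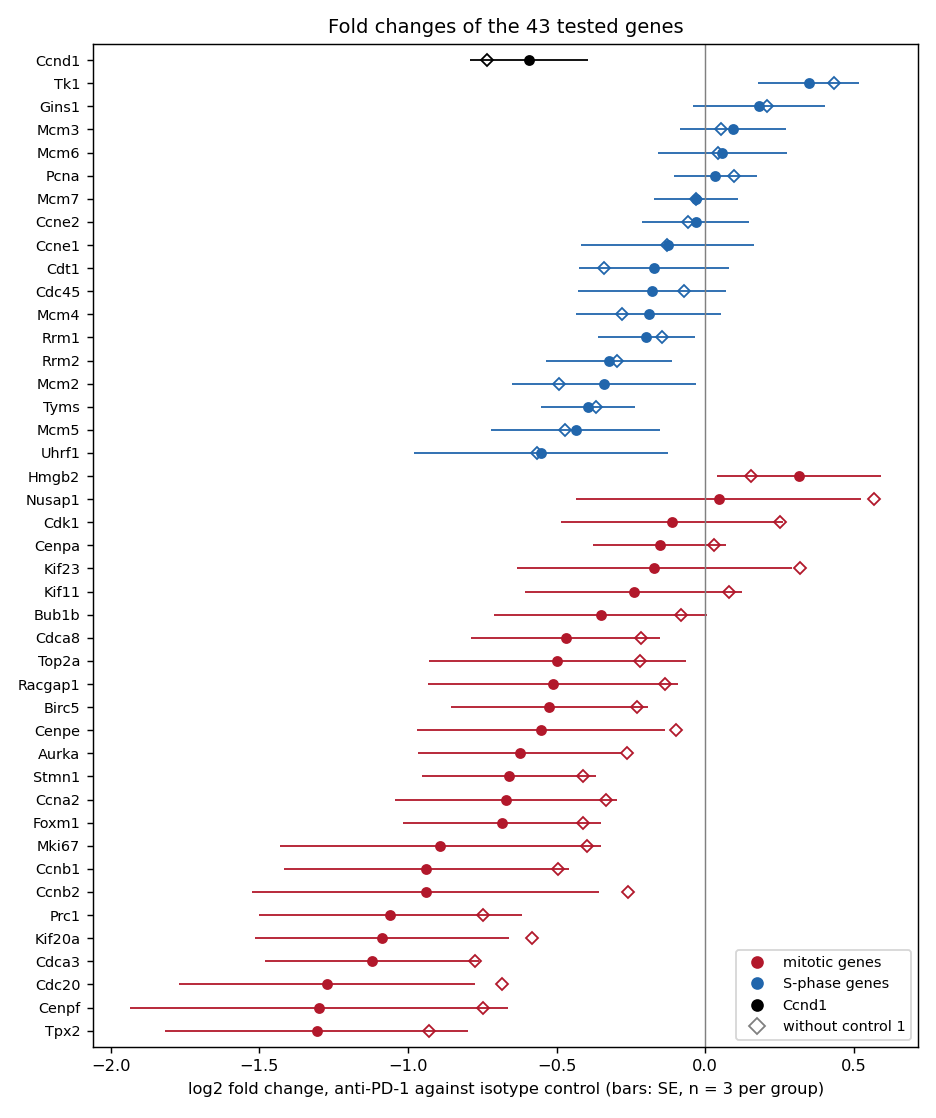
Points give the limma difference (anti-PD-1 minus control, log2(value + 0.5) scale) of each tested member with its standard error, grouped as Ccnd1, S-phase and mitotic genes, and open diamonds give the value without control 1. Most mitotic points lie left of 0, down to -1.31, with wide bars, and the S-phase points straddle 0 between -0.55 and 0.35.

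Among the S-phase genes, those that supply deoxynucleotides went in both directions. Tyms (ENSMUSG00000025747), thymidylate synthase, which makes dTMP, measured 8.74, 7.79 and 8.75 in controls 1 to 3 and 5.72, 5.86 and 7.4 in anti-PD-1 livers 1 to 3. All 3 treated livers lay below all 3 controls, at 8.43 ± 0.55 (SD, n = 3) in controls and 6.32 ± 0.933 in treated livers, a difference of -0.39 ± 0.16 (SE; limma adjusted p = 0.414). Tk1, thymidine kinase of the salvage route, measured 13.4, 11.3 and 11 in controls 1 to 3 and 12.1, 17.4 and 16.7 in anti-PD-1 livers 1 to 3. Here anti-PD-1 livers 2 and 3 were the highest of the 6, and the difference was 0.35 ± 0.17 (SE; limma adjusted p = 0.489). Tk1 overlaps Afmid on the opposite strand, and the sources used here do not state whether reads were counted by strand. Rrm2, the regulatory subunit of ribonucleotide reductase, measured 6.26, 4.87 and 7.09 in controls 1 to 3 and 5.91, 3.93 and 4.45 in anti-PD-1 livers 1 to 3, overlapping groups with a difference of -0.32. Rrm1, its catalytic subunit, measured 20.4, 16.8 and 19.9 in controls 1 to 3 and 20.6, 14.9 and 14.5 in anti-PD-1 livers 1 to 3, and the groups overlapped again (difference -0.20). Summed over these 4 genes, the level was 45.4 ± 4.19 (SD, n = 3) in controls and 43.2 ± 1.07 in treated livers, a difference smaller than the control SD.

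The MCM proteins form the helicase that is loaded at origins and unwinds DNA. Mcm2 measured 4.53, 5.19 and 7.89 in controls 1 to 3 and 6.92, 3.93 and 3.1 in anti-PD-1 livers 1 to 3, with anti-PD-1 liver 1 inside the control range and the other 2 below it. Mcm5 measured 3.78, 3.46 and 4.88 in controls 1 to 3 and 4.32, 2.73 and 1.86 in anti-PD-1 livers 1 to 3, the same order of treated livers, and its difference was -0.44 (limma adjusted p = 0.603). The other 4 subunits, Mcm3, Mcm4, Mcm6 and Mcm7, had differences of 0.09, -0.19, 0.06 and -0.03. Mcm6, whose promoter is printed for its E2F letters, measured 10.6, 9.96 and 12.1 in controls 1 to 3 and 15.8, 10.6 and 8.64 in anti-PD-1 livers 1 to 3, so its highest and lowest values were both in the treated group. The clamp gene Pcna, whose protein holds DNA polymerases on the template, measured 29, 24 and 26.9 in controls 1 to 3 and 31.4, 23.4 and 27.4 in anti-PD-1 livers 1 to 3, and the groups overlapped (difference 0.03).

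Of the remaining S-phase genes, Uhrf1, which guides maintenance methylation to newly made DNA, had the most negative difference of the class, -0.55 ± 0.43 (SE; limma adjusted p = 0.657). It measured 2.48, 2.27 and 2.87 in controls 1 to 3 and 3.6, 1.33 and 0.673 in anti-PD-1 livers 1 to 3, so anti-PD-1 liver 1 was the highest of all 6 and liver 3 the lowest. Gins1, a subunit of the active helicase, measured 1.83, 1.57 and 1.86 in controls 1 to 3 and 1.63, 2.06 and 2.54 in anti-PD-1 livers 1 to 3 (difference 0.18). Cdc45, its partner, had a difference of -0.18, the licensing factor Cdt1 -0.17, and the G1/S cyclins Ccne1 and Ccne2 -0.13 and -0.03. None of these 5 had an unadjusted limma p under 0.05. Ccnd1 (ENSMUSG00000070348), which acts before them in G1, measured 61.1, 74.9 and 89.7 in controls 1 to 3 and 64.1, 45.7 and 40.5 in anti-PD-1 livers 1 to 3. Anti-PD-1 liver 1 lay above control 1, and the other 2 treated livers lay below every control. Its means were 75.2 ± 14.3 (SD, n = 3) in controls and 50.1 ± 12.4 in treated livers, a difference of -0.59 ± 0.20 (SE; limma adjusted p = 0.348). Without both libraries numbered 1, an alternative added after the data were seen, the Ccnd1 difference was -0.92 with a limma adjusted p of 0.0413, and Ccnd1 was then the 1 member called. That alternative called 0.693% of all tested genes higher and 0.257% lower, and it rests on replicates 2 and 3 of each group alone. Ccnd1 overlaps LTO1 on the opposite strand.

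The mitotic genes are ordered by what their products do, beginning with the cyclins and kinases of mitotic entry. Cdk1, the kinase that drives entry, measured 6.69, 2.27 and 3.62 in controls 1 to 3 and 5.19, 2.73 and 3.05 in anti-PD-1 livers 1 to 3. Control 1 was the highest and anti-PD-1 liver 1 the next, the groups overlapped, and the difference of -0.11 was 0.25 without control 1. Its partner Ccnb1, cyclin B1, measured 4.37, 1.52 and 1.36 in controls 1 to 3 and 1.63, 0.999 and 0.31 in anti-PD-1 livers 1 to 3, with anti-PD-1 liver 1 inside the control range (difference -0.94 ± 0.48, SE; limma adjusted p = 0.508). Ccnb2 and Ccna2, which encode cyclins B2 and A2, had differences of -0.94 and -0.67. Foxm1, the transcription factor that drives many of the genes in this class, measured 3.18, 1.68 and 1.51 in controls 1 to 3 and 1.39, 1.33 and 0.621 in anti-PD-1 livers 1 to 3. Its treated livers were all below its controls, at a difference of -0.68 ± 0.33 (SE; limma adjusted p = 0.488), and it overlaps another protein-coding gene on the same strand. Aurka, a kinase of the spindle poles, had a difference of -0.62.

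The mitotic genes that were lower at an unadjusted p under 0.05 came from several roles, namely mitotic progression (Cdca3 and Cdc20), the spindle (Tpx2) and cytokinesis (Kif20a and Prc1). Cdca3 (ENSMUSG00000023505), an adaptor that promotes mitotic entry through degradation of the kinase Wee1, measured 6.47, 2.33 and 3.57 in controls 1 to 3 and 1.97, 0.999 and 1.6 in anti-PD-1 livers 1 to 3. All treated livers were below all controls, at 4.12 ± 2.13 (SD, n = 3) in controls and 1.52 ± 0.49 in treated livers, a difference of -1.12 ± 0.36 (SE; limma adjusted p = 0.336). Cdc20, the activator of the anaphase-promoting complex, measured 8.04, 1.84 and 2.16 in controls 1 to 3 and 1.68, 0.799 and 0.828 in anti-PD-1 livers 1 to 3. The groups did not overlap, but control 1 was far above controls 2 and 3, so the control SD was large (4.01 ± 3.49 (SD, n = 3) in controls and 1.1 ± 0.501 in treated livers; difference -1.27 ± 0.50, SE; limma adjusted p = 0.407). Tpx2, which targets Aurora A to spindle microtubules, had the most negative difference of all members. It measured 5.88, 2.54 and 2.26 in controls 1 to 3 and 2.64, 0.732 and 0.414 in anti-PD-1 livers 1 to 3, with anti-PD-1 liver 1 inside the control range and the other 2 livers below it. The difference was -1.31 ± 0.51 (SE), with an adjusted p of 0.404 by limma that became 0.0943 when replicate numbers were blocked. Kif20a, a kinesin of the central spindle needed for cytokinesis, measured 9.77, 2.71 and 3.52 in controls 1 to 3 and 2.59, 1.73 and 1.5 in anti-PD-1 livers 1 to 3 without overlap (difference -1.09, limma adjusted p = 0.408). Stmn1, which destabilises microtubules, measured 11.9, 6.11 and 7.74 in controls 1 to 3 and 7.25, 3.93 and 4.5 in anti-PD-1 livers 1 to 3, where anti-PD-1 livers 2 and 3 were below every control (difference -0.66, limma adjusted p = 0.453). The kinesin Kif11 and the spindle protein Nusap1 gave -0.24 and 0.05. Cdc20 overlaps Elovl1, Kif20a overlaps Cdc23 and Prc1, named next, overlaps a further gene, each on the opposite strand.

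The other tested genes of cytokinesis and those of the kinetochore were likewise highest in control 1. Prc1, which bundles microtubules of the midzone, measured 7.61, 4.0 and 3.47 in controls 1 to 3 and 3.79, 2.2 and 0.88 in anti-PD-1 livers 1 to 3 (difference -1.06 ± 0.44, SE; limma adjusted p = 0.43). Control 1 was the highest and anti-PD-1 liver 3 the lowest, and liver 1 lay between controls 2 and 3. Its partners in division, Kif23 and Racgap1, had differences of -0.17 and -0.51. Cenpf, a large protein of the outer kinetochore, measured 13, 3.3 and 4.37 in controls 1 to 3 and 5.09, 2.06 and 0.673 in anti-PD-1 livers 1 to 3, from the highest value in control 1 to the lowest in anti-PD-1 liver 3 (difference -1.30 ± 0.64, SE; limma adjusted p = 0.49). The motor Cenpe and the centromeric histone Cenpa gave -0.55 and -0.15, the checkpoint kinase Bub1b -0.35, and Birc5 and Cdca8 of the chromosomal passenger complex -0.52 and -0.47. Bub1, which was not tested, had 0 reads in anti-PD-1 liver 2, which allows a level of up to 0.2 units in that library as far as counting goes.

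Among genes of chromosome structure, Mki67, the marker of cycling cells that coats mitotic chromosomes, measured 46.6, 15.2 and 17.7 in controls 1 to 3 and 26, 10.3 and 6.88 in anti-PD-1 livers 1 to 3. Anti-PD-1 liver 1 stood above controls 2 and 3, and the group means, 26.5 ± 17.4 (SD, n = 3) in controls and 14.4 ± 10.2 in treated livers, differed by less than the spread between livers allows to be called (-0.89 ± 0.54, SE; limma adjusted p = 0.574). Top2a, which untangles sister chromosomes, measured 15.3, 8.71 and 7.99 in controls 1 to 3 and 14.6, 5.46 and 4.35 in anti-PD-1 livers 1 to 3, again with anti-PD-1 liver 1 above controls 2 and 3 (difference -0.50). Hmgb2, a DNA-bending protein, was the 1 tested mitotic gene in which control 1 was not the highest, and the 1 mitotic gene with a higher mean in the treated livers. It measured 5.29, 5.19 and 10.9 in controls 1 to 3 and 7.49, 9.19 and 8.85 in anti-PD-1 livers 1 to 3, with control 3 the highest and controls 1 and 2 the lowest (difference 0.31).

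**Figure D3:**
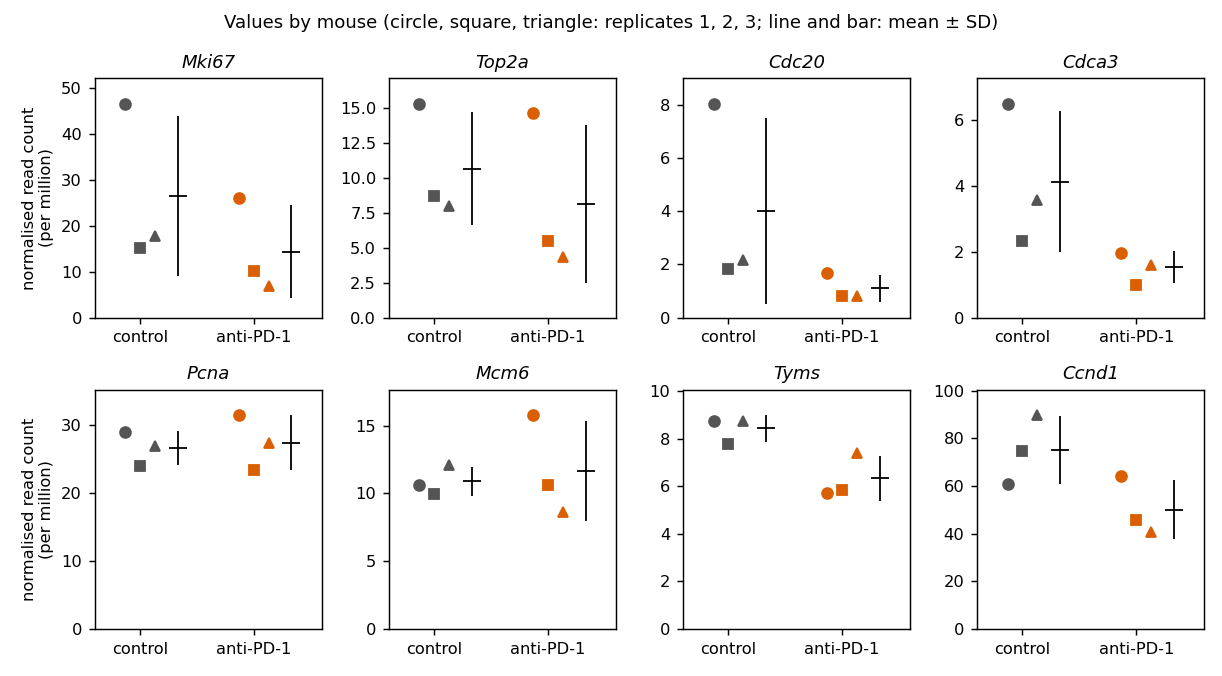
Normalised read count (near CPM) in each liver for 8 members, with circles, squares and triangles for replicates 1, 2 and 3 and the mean ± SD (n = 3) beside each group. In the mitotic panels (Mki67, Top2a, Cdc20 and Cdca3) control 1 stands above the other controls, and in the treated group replicate 1 is the highest liver.

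The size of the mitotic differences varied with which livers were compared. Within same-numbered pairs, which the replicate block uses, the mean over the mitotic genes was lower in the treated liver of all 3 pairs, at -0.09 against 0.73, -0.76 against -0.45 and -1.04 against -0.28 on the log2 scale relative to the control mean. The treated liver was lower in all 3 pairs for 23 of 31 mitotic and 2 of 18 S-phase genes, where 20.5% of all tested genes were. For Mki67 the block brought the SE from 0.54 to 0.17 and the limma adjusted p to 0.115. The labels do not say that same-numbered mice were matched, and the pairing rests partly on these same values. Control 1 held the highest of the 6 values in 28 of 31 mitotic genes but in 1 of 18 S-phase genes, and it was highest for 21.2% of all tested genes. Its level was a median of 2.20 times the mean of controls 2 and 3 over the mitotic genes and 0.978 times over the S-phase genes. Without control 1, in a fit with no block, 19 of 25 mitotic differences were negative, their median was -0.26, the 4 that turned positive were Cdk1, Cenpa, Kif23 and Kif11, and 1 mitotic gene (Cdca3) was lower at an unadjusted p under 0.05, against a background of 4.35%. Conversely, anti-PD-1 liver 1 was the highest treated liver in 29 of 31 mitotic and 14 of 18 S-phase genes (33.8% of all tested genes). It exceeded both controls 2 and 3 in 17 of 31 mitotic and 10 of 18 S-phase genes. The share of all tested genes for that count was not computed. Without anti-PD-1 liver 1 the mitotic median was -0.86, with 11 genes lower at an unadjusted p under 0.05 (background 7.06%). Without both libraries numbered 1 it was -0.48, with 10 such genes (background 6.35%), and the S-phase median was -0.19. Under these 3 subsets the S-phase median stayed between -0.26 and -0.13.

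**Figure D4:**
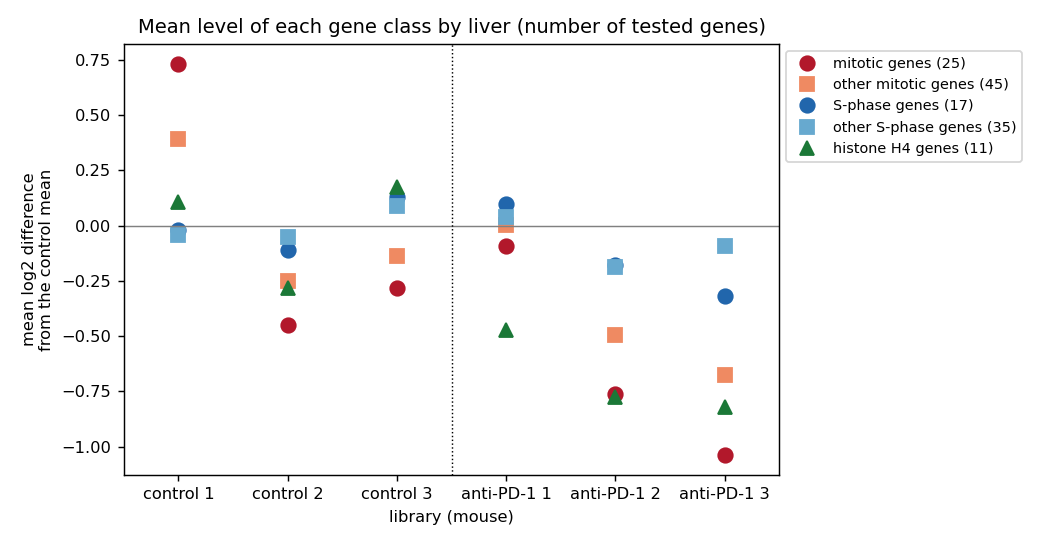
Mean over the tested genes of each class of log2(value + 0.5) minus the mean of the controls, for each of the 6 livers, for the mitotic and S-phase members, the other genes of both phases and the histone H4 genes. The mitotic class reads 0.73, -0.45 and -0.28 in controls 1 to 3 and -0.09, -0.76 and -1.04 in anti-PD-1 livers 1 to 3, a wider range than the S-phase class, which stays between -0.32 and 0.13.

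Markers of other cells also differed between these livers. The summed level of 6 Kupffer cell markers, the resident macrophages of the liver, was 358, 153 and 199.7 in controls 1 to 3 and 197, 166 and 148 in anti-PD-1 livers 1 to 3, highest in control 1 like the mitotic genes. The sum is carried by Cd5l and Clec4f, and per marker the mean difference from the control mean on the log2 scale was 0.63, -0.58 and -0.05 in controls 1 to 3 and -0.87, -2.01 and -1.83 in anti-PD-1 livers 1 to 3. On this per-marker mean, though not on the sum, all treated livers were below all controls. In the mitotic class anti-PD-1 liver 1 (-0.09) lay above controls 2 (-0.45) and 3 (-0.28). Each treated liver was further below the control mean in the Kupffer markers than in the mitotic class. Of the 6 markers, 5 were lower at an unadjusted p under 0.05, where 6.24% of all tested genes were. Monocyte markers (7 genes) summed to 312, 182 and 164 in controls 1 to 3 and 943, 173 and 268 in anti-PD-1 livers 1 to 3, and neutrophil markers (4 genes) to 8.36, 8.22 and 7.39 in controls 1 to 3 and 36.2, 5.86 and 10.2 in anti-PD-1 livers 1 to 3. Together with the T cell markers given earlier, these were highest in anti-PD-1 liver 1, the treated liver with the most mitotic mRNA. In anti-PD-1 livers 1 to 3, B and plasma cell markers summed to 24.8, 5.19 and 6.62 and stellate markers to 925, 606 and 622. Erythroid markers summed to 726, 274 and 379 and cholangiocyte markers to 137, 78.8 and 94.3, again highest in liver 1 among the treated livers. Endothelial markers (333, 382 and 373) were lowest there. In controls 1 to 3 the B and plasma cell sums were 13.2, 13.7 and 4.93 and the stellate sums 584, 811 and 606. Erythroid sums there were 258, 343 and 197 and endothelial sums 370, 369 and 372. The cholangiocyte sums in controls 1 to 3 were 94.9, 120 and 238, so control 3 was the highest of all 6. Hepatocyte markers (8 genes) summed to 88454, 68445 and 82035 in controls 1 to 3 and 67004, 72925 and 81792 in anti-PD-1 livers 1 to 3. No marker counted in these lists was at 0 reads in any library. The neutrophil marker Ly6g was absent from the deposited values and so was not counted. The part of these cells in the mitotic values was not tested.

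Further genes of the same phases, listed by function, had medians of the same sign and nearer to 0. Of 60 other mitotic genes 45 were tested, 42 had a negative difference, the median was -0.32 and 5 were lower at an unadjusted p under 0.05 with 0 higher (6.24% and 5.04% of all tested genes). Without control 1 that median was -0.18. Besides Nek2, Hjurp and Ccnf, given next, the 5 held Spc24 of the kinetochore (-0.45) and the spindle protein Ckap2 (-1.30). Nek2, a centrosome kinase, measured 5.99, 3.84 and 5.23 in controls 1 to 3 and 2.93, 1.93 and 1.91 in anti-PD-1 livers 1 to 3, and Hjurp, the chaperone that loads centromeric histone, measured 95.2, 94.2 and 83 in controls 1 to 3 and 66.1, 61.6 and 43.7 in anti-PD-1 livers 1 to 3. Neither pair of groups overlapped, and control 1 did not stand apart in either (differences -1.001 and -0.68, both with a limma adjusted p of 0.253). For Hjurp, DESeq2 gave an adjusted p of 0.0367. Ccnf, cyclin F, measured 17.8, 14.3 and 12.9 in controls 1 to 3 and 11, 11.5 and 10.04 in anti-PD-1 livers 1 to 3 (difference -0.44, limma adjusted p = 0.348). Of 43 other S-phase genes 35 were tested, 25 were negative, the median was -0.08, and 1 was lower and 1 higher at an unadjusted p under 0.05, no more than the 6.24% and 5.04% of all tested genes. The higher one was Chek1, the replication checkpoint kinase, at 1.08, 2.33 and 2.06 in controls 1 to 3 and 4.18, 3.06 and 5.33 in anti-PD-1 livers 1 to 3 (difference 1.03, limma adjusted p = 0.286), and the lower one Gins2, a helicase subunit, at 5.88, 4.76 and 6.18 in controls 1 to 3 and 4.85, 1.6 and 1.71 in anti-PD-1 livers 1 to 3 (difference -1.06, limma adjusted p = 0.348).

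Replication-dependent histone genes are transcribed in S phase, and their mRNAs lack a poly(A) tail, so libraries made by ribosomal RNA depletion retain them. Of 61 such genes 42 were tested, with 36 negative, a median of -0.36, and 10 lower and 0 higher at an unadjusted p under 0.05 (6.24% and 5.04% of all tested genes). The medians of the H1, H2A, H2B and H3 families lay between -0.41 and -0.23. In the H4 family, singled out after the values were seen, 10 of 11 tested genes were negative with a median of -0.71, and 7 were lower at an unadjusted p under 0.05. The 12 H4 genes together summed to 140.0, 111 and 169 in controls 1 to 3 and 87.5, 72.5 and 71.5 in anti-PD-1 livers 1 to 3, without overlap, and their median without control 1 was -0.76. Hist1h4h measured 35.5, 28.9 and 43.6 in controls 1 to 3 and 18.7, 18.3 and 17.5 in anti-PD-1 livers 1 to 3, at 36 ± 7.36 (SD, n = 3) in controls and 18.2 ± 0.633 in treated livers. Its difference was -0.95 ± 0.15 (SE) with an adjusted p of 0.158 by limma, 0.0823 by limma with replicate numbers blocked and 0.000114 by DESeq2. Hist1h4n measured 32, 15.5 and 31.6 in controls 1 to 3 and 12.5, 8.99 and 8.07 in anti-PD-1 livers 1 to 3 (difference -1.33; adjusted p = 0.244 by limma and 0.0018 by DESeq2), and Hist1h4d measured 17.5, 18.6 and 22.4 in controls 1 to 3 and 14.1, 12 and 11.2 in anti-PD-1 livers 1 to 3 (difference -0.63, limma adjusted p = 0.244). H4 genes are near-identical in coding sequence, so the assignment of reads among them is uncertain, which the sum over the family avoids in part.

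**Figure D5:**
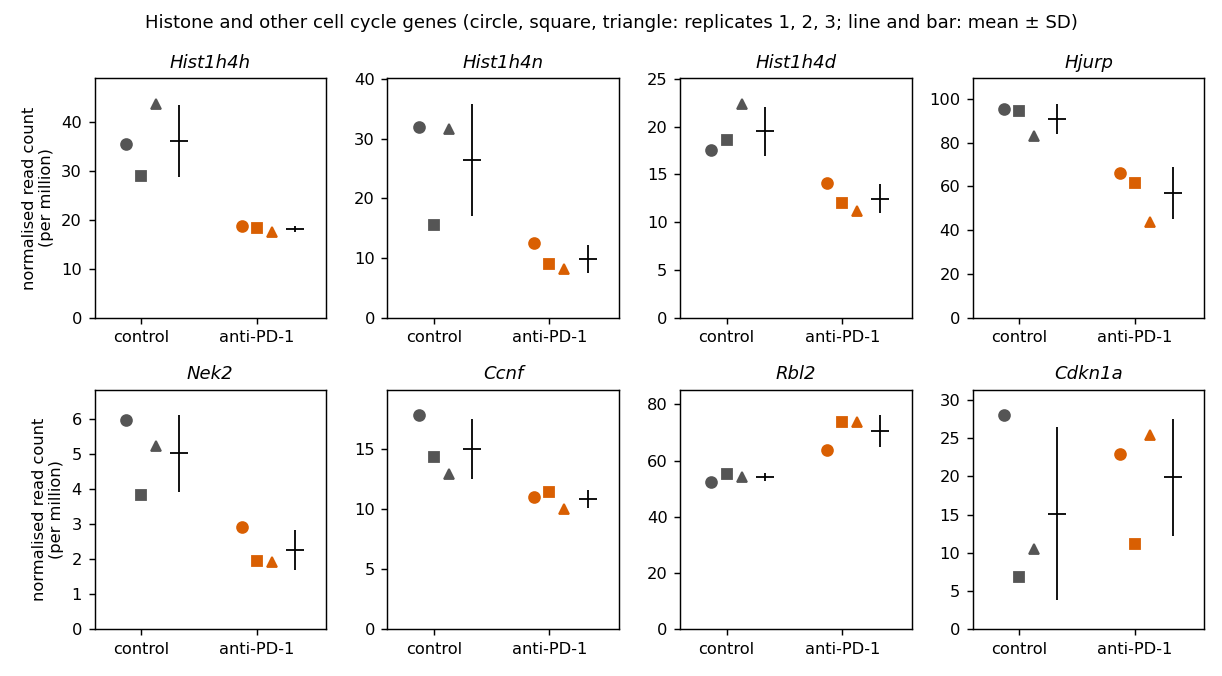
Normalised read count (near CPM) in each liver for 3 histone H4 genes, 3 further mitotic genes (Hjurp, Nek2 and Ccnf) and the brakes Rbl2 and Cdkn1a, with the mean ± SD (n = 3) beside each group. The groups do not overlap in any panel but that of Cdkn1a, where control 1 and anti-PD-1 livers 1 and 3 are high.

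Brakes of the cycle were tested for 23 of 26 genes, of which 16 had a positive difference (median 0.02) and 3 were higher at an unadjusted p under 0.05 with 0 lower (5.04% and 6.24% of all tested genes). Rbl2, the p130 pocket protein of the DREAM complex, measured 52.4, 55.3 and 54.2 in controls 1 to 3 and 63.9, 73.8 and 73.6 in anti-PD-1 livers 1 to 3. All treated livers were above all controls (difference 0.38 ± 0.10, SE; adjusted p = 0.269 by limma and 0.0416 by DESeq2). Btg2, an antiproliferative gene, measured 50.1, 133 and 229.5 in controls 1 to 3 and 278, 415 and 463 in anti-PD-1 livers 1 to 3, also without overlap but with control 1 far below the other controls (difference 1.70, limma adjusted p = 0.291). Its relative Btg1 measured 78.4, 73.4 and 75.2 in controls 1 to 3 and 115, 82.6 and 98.2 in anti-PD-1 livers 1 to 3 (difference 0.37, limma adjusted p = 0.366). Cdkn1a, the p21 inhibitor, measured 28, 6.87 and 10.5 in controls 1 to 3 and 23, 11.2 and 25.5 in anti-PD-1 livers 1 to 3, overlapping groups with control 1 the highest (difference 0.54, limma adjusted p = 0.714).

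Drivers of G1 other than Ccnd1 were tested for 14 of 16 genes, 10 of them negative, with a median of -0.08, and 1 was lower (Yap1) and 1 higher (Ccnd3) at an unadjusted p under 0.05, near the 6.24% and 5.04% of all tested genes. Ccnd3, cyclin D3, measured 19.4, 23.2 and 21 in controls 1 to 3 and 30.02, 27.8 and 24.7 in anti-PD-1 livers 1 to 3, above the controls in every treated liver, where Ccnd1 had a negative difference (difference 0.37, limma adjusted p = 0.348). Yap1, the growth coactivator of the Hippo pathway, measured 69.8, 68.1 and 68.3 in controls 1 to 3 and 53.9, 61.9 and 57.1 in anti-PD-1 livers 1 to 3 and lay lower in every treated liver (difference -0.25, limma adjusted p = 0.38). Myc, a growth-promoting transcription factor, measured 9.5, 60.8 and 89.1 in controls 1 to 3 and 59.1, 100.5 and 85 in anti-PD-1 livers 1 to 3, with control 1 far below the rest (difference 1.08, limma adjusted p = 0.612). Mitogens and their receptors were tested for 13 genes, 8 positive with a median of 0.24, and Egf and Egfr were higher at an unadjusted p under 0.05, with 0 lower (5.04% and 6.24% of all tested genes). Egfr, the receptor of epidermal growth factor, measured 895, 731 and 405 in controls 1 to 3 and 813, 1854 and 2389 in anti-PD-1 livers 1 to 3, with anti-PD-1 liver 1 inside the control range (difference 1.25; adjusted p = 0.355 by limma and 0.0236 by DESeq2).

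Within the mitotic class, the 16 tested genes with a CHR match had a median difference of -0.51, 15 of them negative. The 4 without a match had a median of -0.54, 3 of them negative, and are too few for a comparison. The tested genes Foxm1, Ccna2, Tpx2, Stmn1 and Kif20a had no matched promoter and are in neither set. These promoter matches are letters in a window and were not measured as binding. With 3 mice per group an exact permutation test of 1 gene cannot give a two-sided p below 0.1, and 12 members overlap a protein-coding gene on the opposite strand, whose reads cannot be told apart if strand was not used in counting.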

How the data were processed

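Livers of 3 isotype control and 3 anti-PD-1 mice were compared, grouped by sample title. The authors deposited 1 table of normalised counts, a signal near the CPM scale (counts scaled per library, not by total reads alone) for 21512 Ensembl genes. Per the submitters' processing notes, Trimmomatic 0.38, Bowtie2, RSEM 1.3.0, edgeR and the GRCm39 build were used, in roles that are not given in the sources used here. The deposited values of each library were whole multiples of 1 step to within 0.001 read, so read counts were recovered from them. Symbols came from a table that matched 21407 identifiers.

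Genes with a value of at least 1 in at least 3 libraries were kept (13990), and log2(value + 0.5) was tested with limma 3.58.1 in R 4.3.3 with an intensity trend and Benjamini-Hochberg adjustment at 0.05. As alternatives, the recovered reads were fitted with edgeR 4.0.16 (quasi-likelihood) and with DESeq2 1.42.0. The pseudocount makes log2 differences of low genes smaller than their ratios. Named genes were the 8 members of each class with the smallest limma p, fixed markers of cycling, and the 3 smallest p of each further list. The members and lists were chosen with earlier results of these data known. Deviations from the group means correlated weakly between same-numbered control and anti-PD-1 livers (r = 0.149, 0.135 and 0.251 across genes, which are not independent replicates). Between differently numbered livers r ran from -0.219 to 0.0631. The replicate number was used as a block in an alternative fit. The pairing comes from the labels' replicate field and these values, and the labels name no shared cage or day. Since it rests partly on the same data, the smaller errors under the block are not independent support for it. The procedures were tested on simulated data.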

Additional observations from a re-analysis of the deposited data

How the results depend on the processing

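Over all 13990 genes, limma called 1 gene, edgeR 0, DESeq2 256 and limma without both libraries numbered 1 called 133. Pairing the livers through the replicate block gave 40 called genes and changed no call among the members. Leaving out 1 library at a time gave 0 to 30 called genes, the highest without anti-PD-1 liver 1 and the lowest without anti-PD-1 liver 3, with 2 without control 2. Members called were 0 under every alternative run except 1 (Ccnd1) without both libraries numbered 1. The median difference of the mitotic genes ran from -0.86 to -0.26 when 1 library was left out (-0.40 with a pseudocount of 2), and that of the S-phase genes from -0.26 to -0.04. Over 62 named genes and 17 settings, 987 of 1022 results kept their direction and side of the threshold, 7 passed it and 28 had the opposite sign, in 12 genes. With a pseudocount of 2, edgeR and DESeq2, Nusap1 read -0.0010, -0.083 and -0.081. Without both libraries numbered 1, Mcm3 read -0.078, Mcm6 -0.187, Pcna -0.0056, Cdk1 0.0032 and Kif23 0.021. With 1 library left out, ranges across 0 were -0.32 to 0.014 for Ccne1, -0.097 to 0.067 for Ccne2, -0.34 to 0.00043 for Cdt1, -0.037 to 0.20 for Mcm3, -0.17 to 0.24 for Mcm6, -0.11 to 0.057 for Mcm7, -0.068 to 0.14 for Pcna, -0.43 to 0.25 for Cdk1, -0.33 to 0.029 for Cenpa, -0.56 to 0.081 for Kif11, -0.47 to 0.32 for Kif23 and -0.27 to 0.57 for Nusap1. The cause of these shifts was not tested. The 3-read floor was 0.144 to 0.2 units per library.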
